A study of Mus musculus with 14 samples.

Results

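Interferon-induced and antigen presentation genes were followed in hippocampal CA3 of wild-type mice and of Dcx mutants. Dcx, on the X chromosome, encodes doublecortin, which binds microtubules. The 9 genes were chosen by symbol in the platform annotation. They are Ifitm3, Ifitm2, Ifit3, Ifit1, Irf9, Bst2, B2m, H2-D1 and H2-K1, and they were selected on a rise of Ifitm3 and Ifit3 in the inner layer of the mutants. Inner-layer values of the 9 genes are therefore given as descriptions. For these genes only the outer layer, which did not enter the choice, is read as a test against wild type. That test shares its wild-type arrays with the inner-layer comparison used for the choice. Counts of their inner-layer calls are printed beside the share of all features and are not read as results. The array carried 15 probes for these 9 genes out of 25697. In 6 genes at least 1 probe was detected (deposited detection p under 0.05) on at least 4 arrays, which made them part of the 9355 features tested, and in the other 3 (Ifit1, H2-D1 and H2-K1) none was.

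All mice were adults of the Sv129Pas strain. Wild-type (WT) CA3 was taken in 1 piece from 5 mice, numbered 145, 206, 142, 199 and 144. The mutants, whose genotype is labelled Dcx and which the study's design text calls knockouts, have a pyramidal layer split in an outer (SPE) and an inner (SPI) part. SPE came from 5 mutants, numbered 147, 146, 165, 166 and 148, and SPI from 4 of them, all but 165. Each sample was pooled dissected tissue of 1 mouse hybridised to 1 array, so the 10 mice were the replicates. The p-values rest on the spread between arrays within groups, pooled over all groups, with the mouse as a block. SPI vs SPE largely compares layers of the same mice. No sample held purified cells, and in such tissue fewer cells of a type and less RNA per cell cannot be told apart. The WT tissue was a whole CA3 layer and the mutant tissues were parts of one, so genotype and the amount of neighbouring tissue taken along cannot be told apart. In the outer samples the bracketed layer code goes against the title, and the title was used.

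The arrays differed in brightness. Mean raw signal was 371 to 515 intensity units on WT, 279 to 482 on SPE and 119 to 362 on SPI arrays, and detected probes ran from 8413 on SPI 147 to 11988 on WT 206. SPI 147, SPI 148 and SPE 148 were the 3 dimmest arrays. Every SPI array was dimmer than every WT array, so layer and brightness cannot be told apart in SPI vs WT. The values below are log2 signals after background correction and quantile normalisation, a scale on which a difference of 1 is a doubling. Of the pyramidal markers planned, Neurod6 had no probe past the detection filter. Slc17a7, the vesicular glutamate transporter of pyramidal cells, was detected on all 14 arrays. It is not particular to CA3 and does not check the region label. It averaged 13.01 ± 0.34 (SD, n = 5) in WT, 12.80 ± 0.16 in the 5 outer and 12.43 ± 0.41 in the 4 inner samples, and fell by 0.56 in SPI vs WT (limma adjusted p = 0.0478). The mutated gene itself, Dcx, read 5.50 to 5.92 in WT, 4.85 to 5.79 in SPE and 4.64 to 5.64 in SPI. Its ranges overlapped and neither layer passed against WT (SPE -0.42 ± 0.22, limma adjusted p = 0.904, and SPI -0.43 ± 0.23, limma adjusted p = 0.184). Whether its probe lies in the mutated part of the gene was not tested.

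Type I interferons bind a receptor whose kinases phosphorylate Stat2. It joins Irf9 in a complex that binds the interferon-stimulated response element (ISRE) of target genes such as the Ifit and Ifitm families. Interferon gamma acts through the gamma-activated site (GAS) and raises the genes that load peptides on class I molecules, whose heavy chains (here H2-K1 and H2-D1) pair with beta-2 microglobulin, the product of B2m. In brain, microglia and vascular cells are known for strong responses, and neurons keep class I molecules low.

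Promoter sequences of the 2 genes that led the choice, Ifitm3 and Ifit3, and of Ifitm2, a relative of Ifitm3 on the same chromosome, are shown because they hold matches to the element bound by the Irf9 complex. Each window runs from 250 bases before to 50 after the start that the RefSeq-derived promoter table (GRCm38.p6) uses for the gene, printed 5′ to 3′ on the gene's strand, with matches to the ISRE core (TTTC, any 2 bases, TTTC, or its complement GAAA, any 2 bases, GAAA) in capitals. The windows are chr7:141010695-141010994 (minus strand) for Ifitm3, chr7:140955912-140956211 (minus strand) for Ifitm2 and chr19:34583279-34583578 (plus strand) for Ifit3. For Ifitm3 that start is the edge of the RefSeq gene span, which runs from 141009590 to 141010744. For Ifitm2 (140954837 to 140959686) and Ifit3 (34583119 to 34588982) it lies inside the span, so positions in those windows do not count from the outermost start of the gene.
Ifitm3: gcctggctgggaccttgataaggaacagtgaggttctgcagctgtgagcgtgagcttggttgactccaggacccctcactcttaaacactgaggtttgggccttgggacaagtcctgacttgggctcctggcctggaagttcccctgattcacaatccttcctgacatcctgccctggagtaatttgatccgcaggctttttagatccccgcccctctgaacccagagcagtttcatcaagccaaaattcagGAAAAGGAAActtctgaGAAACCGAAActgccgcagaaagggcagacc
Ifitm2: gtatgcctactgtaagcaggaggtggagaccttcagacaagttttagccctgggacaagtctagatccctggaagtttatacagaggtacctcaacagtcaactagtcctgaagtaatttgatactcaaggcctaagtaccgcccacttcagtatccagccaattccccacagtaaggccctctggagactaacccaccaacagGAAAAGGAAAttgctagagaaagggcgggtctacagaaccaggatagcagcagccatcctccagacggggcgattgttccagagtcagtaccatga
Ifit3: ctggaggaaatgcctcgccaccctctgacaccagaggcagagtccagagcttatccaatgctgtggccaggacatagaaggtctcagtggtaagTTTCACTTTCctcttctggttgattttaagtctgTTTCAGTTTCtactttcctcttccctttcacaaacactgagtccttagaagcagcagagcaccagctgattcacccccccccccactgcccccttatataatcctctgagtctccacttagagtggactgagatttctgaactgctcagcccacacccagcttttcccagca
Ifitm3 and Ifit3 each held 2 ISRE cores and Ifitm2 held 1. With the table's start base counted as 0, those of Ifitm3 lay at bases 2 to 11 and 19 to 28, those of Ifit3 at -156 to -147 and -122 to -113, and that of Ifitm2 at -46 to -37. Of the other members, Ifit1 held 2 cores, Bst2 2 that overlap each other, B2m 1, and Irf9, H2-D1 and H2-K1 held none in their windows. The ISRE core was present in 3.44% of all 32851 promoter windows of this length. A GAS (TTCNNNGAA) was present in 8.3% of windows and, among the members, in Ifitm3, where it overlaps an ISRE core, and in Bst2, where it also overlaps one. A match of letters is a description and says nothing of binding in these samples.

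Ifitm3, a membrane protein that blocks entry of enveloped viruses, had the largest difference between layers of the 6 measured members. Its single probe (ILMN_2658501) was detected on all 14 arrays. In WT mice 145, 206, 142, 199 and 144 its log2 signal was 5.38, 5.28, 5.65, 5.42 and 5.02. In SPE of mice 147, 146, 165, 166 and 148 it was 5.11, 5.30, 4.93, 5.51 and 5.33. In SPI of mice 147, 146, 166 and 148 it was 6.32, 5.92, 6.14 and 6.28. All 4 SPI arrays lay above all 5 WT and all 5 SPE arrays, while WT and SPE overlapped over most of their ranges. SPI stood 0.79 ± 0.15 (SE) above WT, or 1.73-fold, and 0.91 ± 0.13 above SPE, or 1.87-fold. Within the 4 mice that gave both layers SPI was the higher one in 4 of 4, by 1.20, 0.63, 0.63 and 0.96 in mice 147, 146, 166 and 148. The test that the choice did not use gave no difference past the threshold: SPE differed from WT by -0.11 ± 0.14 (limma adjusted p = 0.918).

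**Figure D1:**
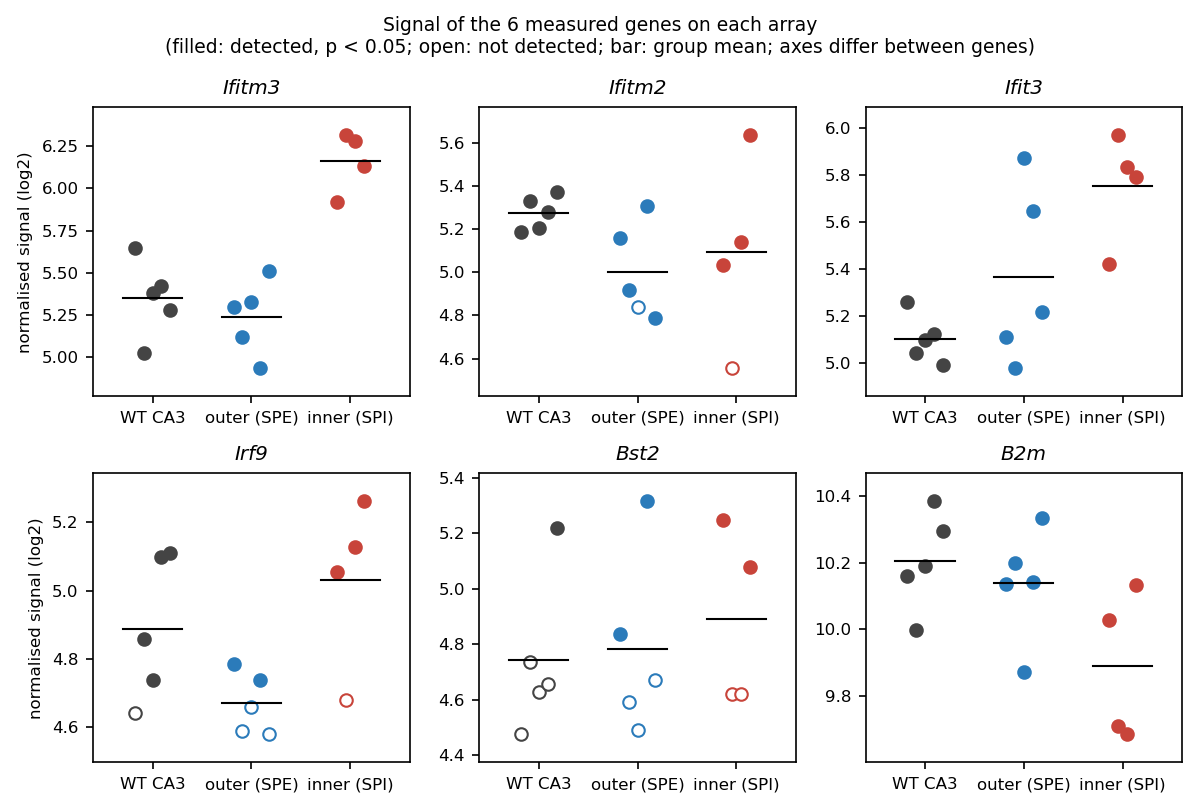
Normalised log2 signal (y axis, a range of its own in each panel) of the 6 measured members on each array of WT CA3 (n = 5), outer layer (n = 5) and inner layer (n = 4). Filled points were detected, open points were not, and bars are group means. The 4 inner-layer points of Ifitm3 lie above every other point of that panel, and most Bst2 points are open.

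Ifit3, a tetratricopeptide protein that binds other Ifit proteins in antiviral RNA recognition, was higher in SPI than in WT, but its SPE arrays were spread over both. Its brightest probe (ILMN_2944666), detected on all 14 arrays, read 5.10, 4.99, 5.26, 5.12 and 5.04 in WT mice 145, 206, 142, 199 and 144. SPE read 4.97, 5.11, 5.65, 5.21 and 5.87 in mice 147, 146, 165, 166 and 148, and SPI read 5.97, 5.42, 5.79 and 5.83 in mice 147, 146, 166 and 148. The SPI arrays lay above all WT arrays, whereas SPE of mouse 148 stood above 3 SPI arrays and SPE of mouse 165 above 1. SPI minus WT was 0.67 ± 0.17 (1.60-fold) and SPI minus SPE 0.41 ± 0.15 (1.33-fold). By mouse, SPI minus SPE was 0.99 in 147, 0.31 in 146, 0.58 in 166 and -0.035 in 148, so SPI was the higher layer in 3 of 4 mice. SPE minus WT was 0.26 ± 0.17 (limma adjusted p = 0.904), which did not pass. The outer-layer SD of 0.38 was well above the WT SD of 0.10.

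The other Ifit3 probes, ILMN_1230458 and ILMN_1246194, were detected on 0 of 14 arrays. The higher Ifit3 signal in SPI was therefore read by 1 probe of 3, and whether that probe also binds Ifit3b, a close copy of Ifit3, was not tested. Ifit1, the neighbouring cap-recognition gene on chromosome 19, had 1 probe, which was detected on 0 arrays (group means 4.35 in WT, 4.30 in SPE and 4.39 in SPI), so no level or fold is given.

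Ifitm2, which like Ifitm3 restricts virus entry, did not share the pattern of Ifitm3. Its probe (ILMN_1232667) read 5.21, 5.37, 5.18, 5.28 and 5.33 in WT mice 145, 206, 142, 199 and 144, and 4.92, 5.16, 5.31, 4.79 and 4.84 in SPE of mice 147, 146, 165, 166 and 148, where mouse 148 was not detected. SPI read 4.56 in mouse 147, where it was not detected, and 5.03, 5.64 and 5.14 in mice 146, 166 and 148. SPI held both the lowest and the highest array of the gene, with an SD of 0.44 against 0.080 in WT. SPI minus WT was -0.16 ± 0.18, and SPI was above SPE in 2 of 4 mice. SPE minus WT was -0.27 ± 0.18 and did not pass (limma adjusted p = 0.904). Whether the probes of these related genes bind each other's transcripts was not tested.

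Irf9, the DNA-binding partner of Stat2, was near the detection limit. Its brighter probe (ILMN_1233461) was detected on 9 arrays: 4 of 5 WT, 2 of 5 SPE and 3 of 4 SPI. It read 4.74, 5.11, 4.64, 5.10 and 4.86 in WT mice 145, 206, 142, 199 and 144, then 4.59, 4.78, 4.74, 4.58 and 4.66 in SPE of mice 147, 146, 165, 166 and 148. SPI of mice 147, 146, 166 and 148 read 4.68, 5.05, 5.26 and 5.13. The 3 detected SPI arrays stood above all SPE arrays and the undetected one, mouse 147, within them. SPI minus SPE was 0.37 ± 0.11, with SPI higher in 4 of 4 mice, whereas SPI minus WT was 0.15 ± 0.14, and the SPI and WT arrays overlapped. SPE minus WT was -0.22 ± 0.13 (limma adjusted p = 0.904). A further Irf9 probe was detected on 0 arrays.

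Bst2, or tetherin, which holds budding viruses at the cell surface, was detected on 5 of 14 arrays: WT 206, SPE 146 and 165, and SPI 146 and 166. Those 5 arrays read 5.22, 4.84, 5.32, 5.25 and 5.08, and the others lay between 4.47 and 4.74. Detected arrays thus occurred in all 3 groups, and 4 of 5 WT, 3 of 5 SPE and 2 of 4 SPI arrays gave only a bound. SPI minus WT was 0.19 ± 0.19 and SPE minus WT 0.038 ± 0.179 (limma adjusted p = 0.974).

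B2m was read brightly and had a lower mean in SPI than in WT. Its probe ILMN_1216746 read 10.19, 10.29, 10.16, 10.38 and 10.00 in WT mice 145, 206, 142, 199 and 144. SPE read 10.20, 10.14, 10.14, 10.33 and 9.87 in mice 147, 146, 165, 166 and 148, and SPI read 9.71, 10.03, 10.13 and 9.68 in mice 147, 146, 166 and 148. SPI 147 and SPI 148 lay below all WT and SPE arrays, and SPI 146 and SPI 166 lay within them. SPI was below SPE in 4 of 4 mice, by amounts of -0.49, -0.11, -0.20 and -0.19 in mice 147, 146, 166 and 148. SPI minus WT was -0.32 ± 0.12, and the other detected B2m probe, ILMN_2739999, gave -0.24 ± 0.12. SPE minus WT was -0.068 ± 0.118 (limma adjusted p = 0.943). The remaining B2m probe was detected on 0 arrays.

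The class I heavy chains among the members, H2-D1 and H2-K1, were at or near background. The H2-D1 probe and 1 of the 2 H2-K1 probes were detected on 0 arrays. The other H2-K1 probe (ILMN_2795520) was detected on 1, SPI of mouse 148 at 5.36, with the remaining 13 arrays between 4.26 and 4.77. No difference between groups is drawn from probes that were not detected.

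The 6 measured members lay on both sides of 0 in SPI against WT. In SPI against WT 2 of the 6 measured members, Ifitm3 and Ifit3, passed limma's threshold upward and 0 downward, where 13.6% of all features passed upward and 10.9% downward. As the choice of members used this contrast, nothing is read from that count. The same 2 members had all SPI arrays above all WT arrays, which held for 12.6% of features. Against SPE, 2 members (Ifitm3 and Irf9) passed upward, with a background of 10.8%, and 0 downward, with a background of 9.65%. Ifitm3 alone had all SPI arrays above all SPE arrays, as 6.22% of features did. This comparison shares the inner arrays with the one that chose the members, so nothing is read from these counts either. The Irf9 probe was detected on only 2 of 5 SPE arrays. In SPE against WT 0 of 6 members passed, as did 0% of all 9355 features in limma. At an unadjusted p under 0.05 the count was 0 members and 358 features, and every one of the 28 other settings also called 0. The median over the 6 members was 0.17 in SPI vs WT, -0.091 in SPE vs WT and 0.26 in SPI vs SPE, beside 0.035, 0.036 and -0.012 over all features.

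**Figure D2:**
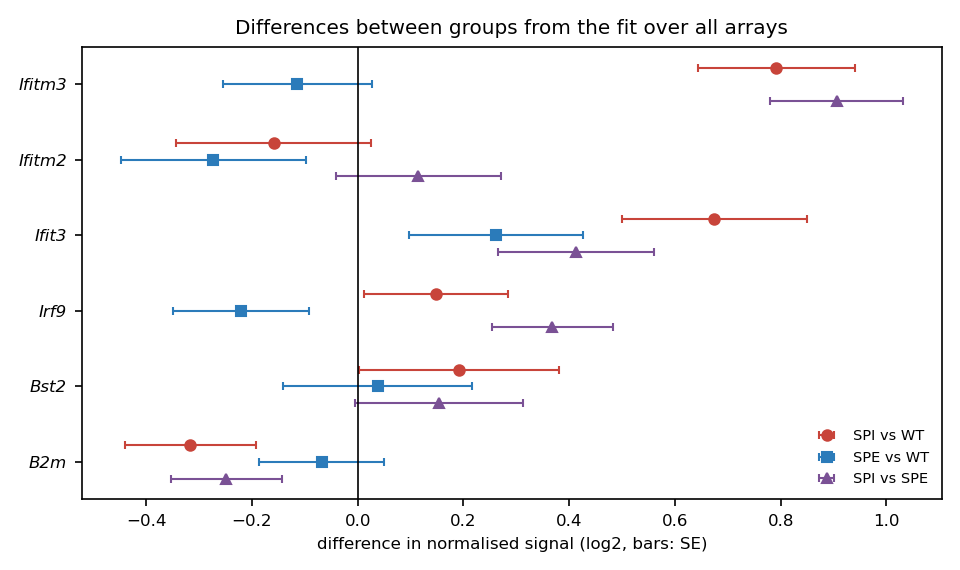
Differences in normalised log2 signal (x axis, bars are SE) of the 6 measured members for SPI vs WT, SPE vs WT and SPI vs SPE. Ifitm3 and Ifit3 lie highest in SPI vs WT at 0.79 and 0.67, B2m lowest at -0.32, and SPE vs WT runs from -0.27 to 0.26.

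The higher values of Ifitm3 and Ifit3 in SPI were seen after normalisation and not in the raw signal. Raw Ifitm3 signal was 119 to 160 units in WT, 102 to 147 in SPE and 89.3 to 136 in SPI. Above the median probe of its own array it stood 13.5 to 45.9 units in WT, 7.45 to 32.2 in SPE and 4.95 to 36.0 in SPI, ranges that overlap. For Ifit3 the corresponding excess was 11.2 to 26.6, 9.48 to 38.4 and 3.72 to 24.1 units. Among the SPI arrays the normalised level of both genes ran opposite to brightness. SPI 147, the dimmest array at a mean of 119 units, had the highest normalised Ifitm3 and Ifit3 and the smallest raw excess, and SPI 146, the brightest of the 4 at 362 units, had the lowest normalised values. SPE 148, at 279 units the dimmest outer array, had the highest Ifit3 of all SPE arrays. SPE 165, the brightest outer array at 482 units, came next at 5.65, with the largest raw excess of that gene (38.4 units). The highest outer-layer Ifitm3, 5.51, was on SPE 166 at 478 units. With each array's mean signal as a covariate, SPI minus WT was 0.57 for Ifitm3 and 0.37 for Ifit3. Without the 3 dimmest arrays it was 0.73 and 0.55, and without SPI 147 alone 0.71 and 0.58.

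**Figure D3:**
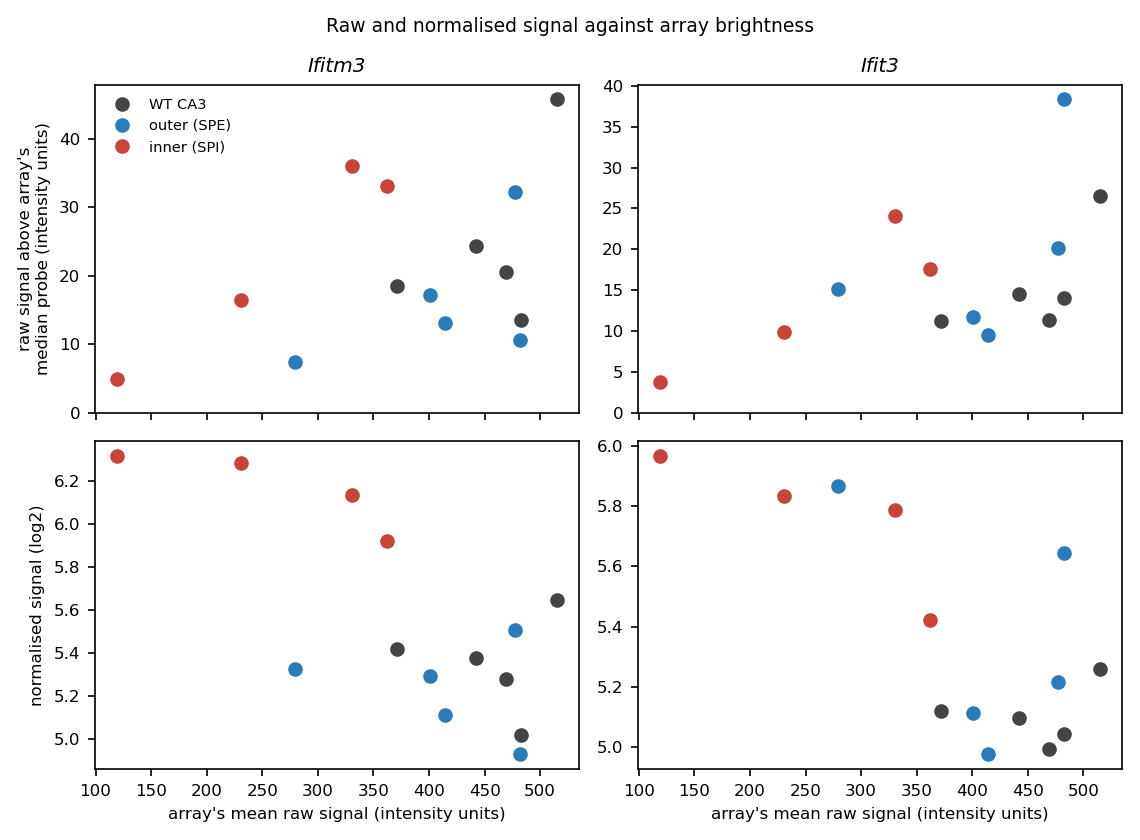
For Ifitm3 (left) and Ifit3 (right), raw signal above the array's median probe (top, intensity units) and normalised log2 signal (bottom) against the array's mean raw signal (x axis), 1 point per array. Inner-layer arrays overlap the others in the top panels, from 4.95 to 36.0 units for Ifitm3, and stand above WT in the bottom panels, highest on the dimmest array.

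The background step and the scaling of the arrays set the size of these differences. With no background correction and the same quantile scaling, SPI minus WT was 0.30 for Ifitm3 and 0.22 for Ifit3. In the authors' normalised values, which carry no background subtraction, Ifitm3 was 114 to 132 in WT, 112 to 127 in SPE and 142 to 161 in SPI, and the SPI minus WT difference on the log2 scale was 0.32. Ifit3 in the same values was 113 to 120, 113 to 140 and 125 to 144, a difference of 0.24. Scaling to the median of the probes past the detection filter moved the median of all features to 0.18 and gave 1.03 for Ifitm3 and 1.06 for Ifit3, or 0.86 and 0.88 relative to that median. It also gave 0.98 for Irf9, 1.13 for Bst2 and 0.60 for Ifitm2, where the sign of the last turned. Scaling to the median of all probes, chosen after seeing the data, moved the median of all features to -0.85 and left Ifitm3 at 0.018 and Ifit3 at 0.013. Relative to that median they stood at 0.87 and 0.87. B2m was at -0.47 and -1.51 in SPI vs WT under these scalings, or -0.65 and -0.66 relative to the median of all features. It was smaller in size without the 3 dimmest arrays (-0.12), with mean signal as a covariate (-0.13) and with array weights (-0.18).

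Genes of the wider interferon pathway were called in both directions. Lists of interferon ligands, receptors and signalling genes (30), other interferon-induced genes (68), other class I (30) and class II (12) presentation genes held 140 genes, of which 44 were measured. In SPI vs WT 4 of the 44 were called higher and 5 lower by limma, beside 13.6% higher and 10.9% lower over all features, and the median was 0.068. Those counts are near or below the background and are no result about the lists. In SPE vs WT 0 were called, with a median of 0.015, and 3 had an unadjusted p under 0.05. In SPI vs SPE 5 were called higher and 6 lower, beside 10.8% and 9.65% over all features, with a median of 0.017. Scaling to the median of filtered probes gave 18 higher and 6 lower calls in SPI vs WT, and mean signal as a covariate 0 and 1. Widely used reporters of the interferon response, namely Irf7, Usp18, Oas1a, Mx1, Rsad2 and Cxcl10, had no probe past the filter. Isg15, a ubiquitin-like modifier, was measured at 0.043 ± 0.175 in SPI vs WT and Ifit2 at 0.17 ± 0.20, neither past the threshold. These 8 genes were chosen for mention after their values were seen.

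Among ligands, receptors and signalling genes, 14 of 30 were measured, and in SPI vs WT 1 rose, 1 fell and 12 did not pass, shares below the 13.6% and 10.9% of all features. Irf3, a transcription factor that starts interferon production, rose by 0.87 ± 0.15 (limma adjusted p = 0.0011), but its 2 dimmer probes gave -0.43 ± 0.21 and -0.28 ± 0.22, and with the probes of each gene averaged Irf3 was at 0.056 and no longer called. Stat2, which Irf9 brings to DNA, fell (-0.64 ± 0.19, limma adjusted p = 0.0235), and was no longer called without WT 142 (-0.55), SPI 148 (-0.63) or the 3 dimmest arrays (-0.33). Scaling to the median of filtered probes turned Stat2 to 0.12. Stat3, a cytokine signalling factor, differed by 0.33 ± 0.15 from WT (limma adjusted p = 0.129) and rose against SPE by 0.39 (limma adjusted p = 0.0444). Its dimmer probes gave 0.40 ± 0.14 and -0.69 ± 0.21 against WT. The receptor chain Ifngr2 differed by 0.39 ± 0.22 and the factor Irf1, an interferon gamma target, by 0.21 ± 0.16, neither of which passed. The 2 dimmer Ifngr2 probes went the other way, at -0.81 ± 0.36 and -0.26 ± 0.17. In SPE Irf3 was at 0.31 ± 0.14 and Irf1 at 0.28 ± 0.15, also not past the threshold.

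Of the 68 other interferon-induced genes only 16 had a probe past the filter, and in SPI vs WT 0 rose, 1 fell and 15 did not pass, again below 13.6% and 10.9%. The 1 that fell was Ly6e, a surface protein with a role in virus entry (-0.42 ± 0.13, limma adjusted p = 0.0337). That call was lost in 10 of 28 other settings, among them without WT 145, 142 or 199, SPE 147, or SPI 147, 146 or 148. Lgals3bp, a secreted glycoprotein, was at 0.30 ± 0.14 against WT and rose against SPE by 0.56 (limma adjusted p = 0.0052). Cmpk2, a mitochondrial nucleotide kinase, was at 0.27 ± 0.14, the RNA-editing enzyme gene Adar at -0.59 ± 0.26 and Ifi27 at 0.30 ± 0.17, none past the threshold. In SPE Ifi27 was at 0.34 ± 0.16 and Lgals3bp at -0.25 ± 0.14.

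Of 13 measured class I presentation genes 3 rose and 3 fell in SPI vs WT, where 13.6% of all features rose and 10.9% fell. Those that rose were Fcgrt, the neonatal Fc receptor (0.63 ± 0.15, limma adjusted p = 0.0079), H2-T23, the mouse Qa-1 molecule (0.62 ± 0.17), and Tap2, a subunit of the peptide transporter (0.58 ± 0.18). H2-T23 was detected on 8 arrays, and its WT mean of 4.68 was near the detection limit. H2-T23 and Tap2 were named after their values were seen, and both calls were lost without SPI 147, where they stood at 0.54 and 0.43. The H2-T23 call was also lost without the 3 dimmest arrays (0.28), with array weights (0.34) and with mean signal as a covariate (0.40). That of Tap2 was also lost with the covariate (0.22) and without WT 206, 142 or 199 (0.58, 0.51 and 0.57). Scaling to the median of all probes ended both, with H2-T23 at 0.18 and Tap2 at -0.56. The 3 that fell were Psme2, a proteasome activator subunit (-1.45 ± 0.24, limma adjusted p = 0.0009), the chaperone Calr (-1.38 ± 0.36) and the disulfide isomerase Pdia3 (-0.72 ± 0.18). Psme2 was detected on 12 arrays, with a mean of 4.91 in SPI. Calr and Pdia3 fold many glycoproteins of the endoplasmic reticulum besides class I. The calls of Calr and Pdia3 were lost with mean signal as a covariate and without the 3 dimmest arrays, where they stood at -0.92 and -0.47. In SPE Psme2 was at -0.54 ± 0.22 and Mr1, which presents vitamin metabolites, at 0.51 ± 0.16 with detection on 4 arrays, neither past the threshold. The 1 class II gene measured, H2-DMa, which loads peptide on class II molecules, was at -0.39 ± 0.14 in SPI (limma adjusted p = 0.0546), and H2-DMa passed in 12 of the other settings.

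**Figure D4:**
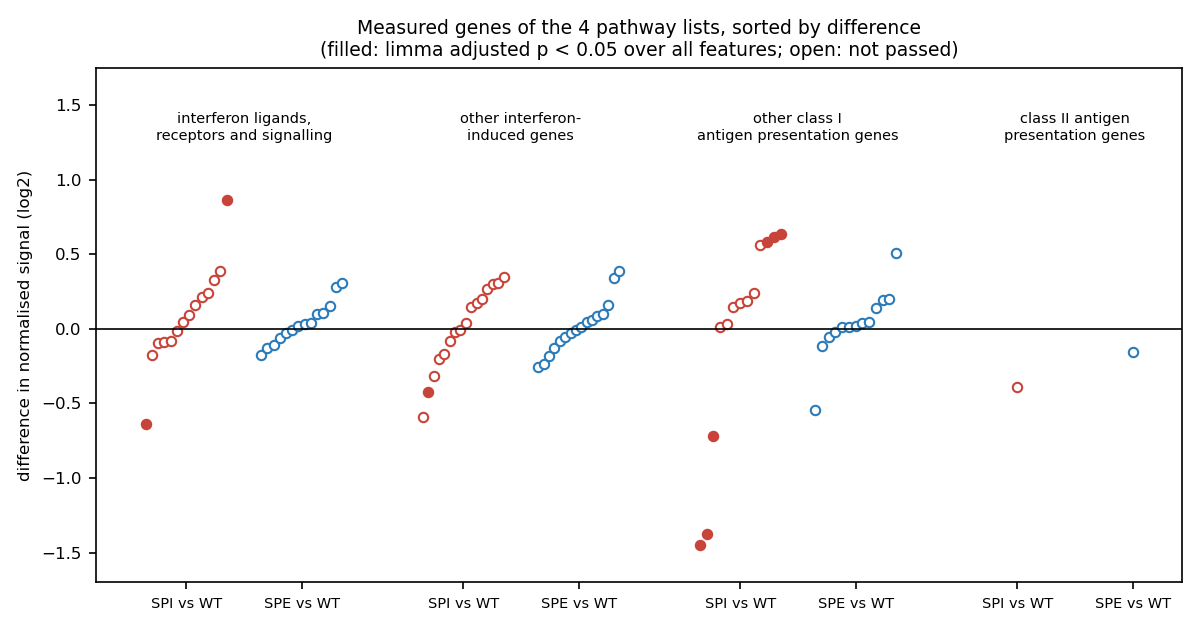
Differences in normalised log2 signal (y axis) of every measured gene of the 4 pathway lists, sorted within each list, for SPI vs WT (red) and SPE vs WT (blue). Filled points passed limma's adjusted threshold over all features: 4 above and 5 below 0 in SPI vs WT, and 0 in SPE vs WT.

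Several cell type marker lists had more genes called higher in SPI vs WT than the 13.6% of all features, beside 10.9% called lower. Of 15 measured microglial markers 10 rose in SPI vs WT and 0 fell, with a median of 0.79, and their summed signal ran from 669 to 796 in WT, 782 to 942 in SPE and 1200 to 1643 in SPI. Tmem119, a defining microglial gene, rose by 1.02 ± 0.13 (limma adjusted p = 0.000138), while Cx3cr1 differed by 0.43 ± 0.37 and did not pass. Vascular (endothelial and mural) markers numbered 12, of which 3 were called higher and 1 lower, and their sums were 1342 to 1506 in WT, 1323 to 1504 in SPE and 1696 to 2239 in SPI, and Pecam1 differed by 0.34 ± 0.24. Astrocyte markers rose in 8 of 14 (median 0.61), with sums of 8142 to 9495 in WT, 9030 to 9949 in SPE and 14251 to 19989 in SPI. Oligodendrocyte and myelin markers rose in 11 of 14 (median 1.27), with sums of 5540 to 7726, 6921 to 7477 and 11291 to 20491. In neither list did a marker fall. Of 7 meningeal and choroid plexus markers 3 rose, with sums of 587 to 802, 549 to 982 and 1018 to 1808, and of 3 blood and lymphoid markers 0 did. The defining markers Dcn and Ttr of the meningeal and choroid plexus list differed by 0.61 ± 0.24 and 0.34 ± 0.54, neither past the threshold. Neuronal markers rose in 2 and fell in 5 of 16. The leukocyte gene Ptprc had no probe past the filter. The part of these cells in the values of Ifitm3 and Ifit3 was not tested.

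**Figure D5:**
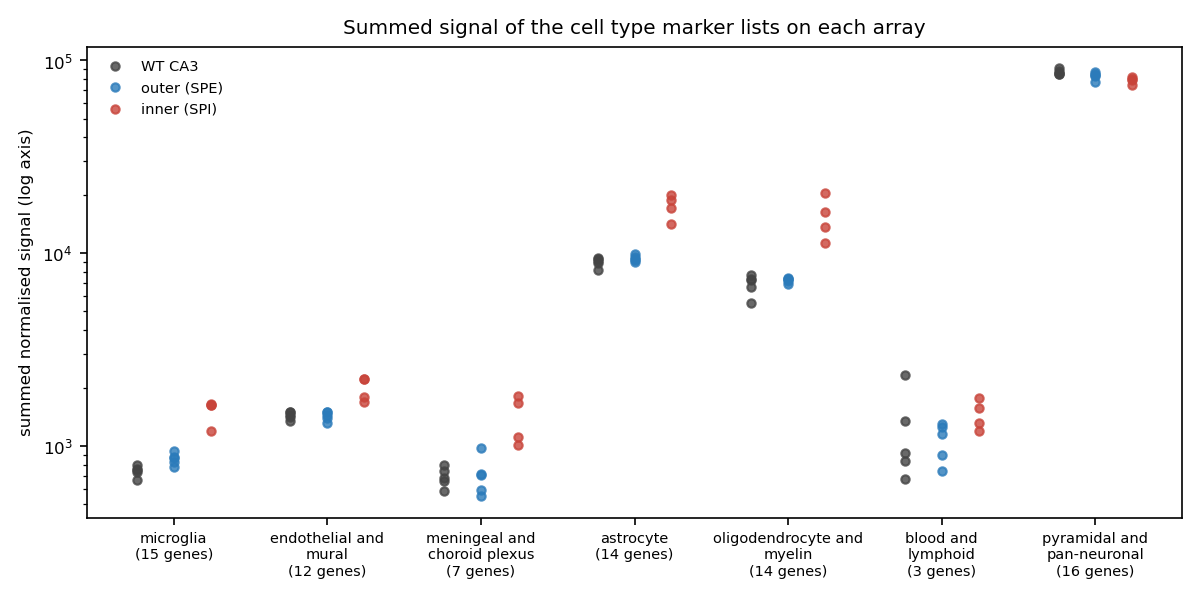
Summed linear normalised signal (log y axis) of the measured genes of 7 cell type marker lists, 1 point per array. Inner-layer sums of microglial markers (1200 to 1643) lie above all WT (669 to 796) and SPE (782 to 942) sums. Those of the astrocyte, oligodendrocyte, vascular (endothelial and mural), and meningeal and choroid plexus lists do likewise.

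The features whose values followed Ifitm3 most closely over the 14 arrays were Tmem125, Gldc, Fgfrl1, Spsb4 and Rab31, with Pearson r of 0.911, 0.910, 0.907, 0.905 and 0.905. Gldc, the glycine cleavage enzyme of astrocytes, had means of 7.30 in WT, 7.44 in SPE and 9.12 in SPI. For Ifit3 they were Coa4, Pes1, Prpf3, Fcrls and Hmgxb3, with r of 0.916, 0.898, 0.896, 0.890 and 0.890. Of the features named here only Fcrls, in the microglial list, belongs to a cell type list. It was detected on 4 of 14 arrays, with means of 4.57 in WT, 4.71 in SPE and 4.96 in SPI. No feature was common to both sets of 5. The points share the arrays, their brightness and the split between SPI and the rest, so these values only describe likeness.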

How the data were processed

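RNA from pooled microdissected CA3 tissue was amplified into biotin-labelled cRNA and read on Illumina bead arrays, per the labels' protocols. The authors deposited a table of bead signal intensity on a linear scale, with a detection p-value for each probe on each of the 14 arrays, and a table of normalised intensity without background subtraction, which served as an alternative. The submitters' processing notes name BeadStudio without a version. Its background settings are not stated in the sources.

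The un-normalised signals were corrected for background with neqc (limma 3.58.1, R 4.3.3, offset 16), quantile normalised and put on a log2 scale. The 12140 probes with detection p under 0.05 on 4 or more arrays were kept, and the brightest stood for its gene (8671 genes and 684 unnamed probes). Bright and dim arrays differ in how far a dim probe stands over background, which limits the comparison of most members between groups. All 14 arrays entered 1 fit with the mouse as a random block (consensus correlation 0.319), and p-values were adjusted by Benjamini-Hochberg over 9355 features. Errors of differences are the fit's standard errors. Because SPI holds 4 of the 5 mice, fitted differences can depart slightly from differences of group means. The pairing comes from the mouse numbers in the titles. Same-mouse layers deviated together at r of 0.131, 0.262, 0.266 and 0.626, and in 1 of 4 mice an outer layer of another mouse correlated higher. The fit was tested on simulated log2 values. These held no differences in array brightness, so the background and normalisation steps were not part of that test.

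The members and all gene lists were chosen with earlier results of these data known. Besides the members, the genes named were, per pathway list, the 4 smallest p in SPI vs WT and the 2 smallest in SPE vs WT, per cell type list the 3 smallest p and the defining markers, and the 5 features most correlated with Ifitm3 and with Ifit3. The text gives a selection. Gene names and promoter sequences come from RefSeq tables (GRCm38.p6), and all 9 members matched. Other settings changed the background correction, scaling, detection filter, probe rule, block, arrays used, weights and a brightness covariate.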

Additional observations from a re-analysis of the deposited data

Results flagged for a closer look

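In the pathway lists 5 genes were higher and 6 lower in SPI by limma's test of SPI against SPE. The WT mean cancels in that difference, but the WT arrays entered the fit's estimate of the spread. Over all features 10.8% were higher and 9.65% lower. Higher in SPI were Fcgrt by 0.59, Tap2 by 0.57, Lgals3bp by 0.56, Irf3 by 0.55 and Stat3 by 0.39. Lower in SPI were Calr at -1.39, Psme2 at -0.91, Pdia3 at -0.67, Mr1 at -0.48, Stat2 at -0.46 and Ly6e at -0.43. The calls of Stat2, Stat3 and Mr1 were lost in 22 of 27, 17 of 28 and 11 of 21 other settings. Those of the others were lost in 2 to 5 settings each. On the brightest probes of the 6 measured members no array stood apart within its group by Dixon's criterion.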

How the results depend on the processing

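The difference of Ifitm3 and Ifit3 between SPI and WT ran from 0.018 to 1.03 and from 0.013 to 1.06 over the 28 other settings. The lowest values came with scaling to the median of all probes. Both genes were chosen on a rise in the inner layer and the settings reuse the same arrays, so nothing is read from the sign. SPE vs WT gave 0 calls in all 28. For SPI vs WT, 2289 calls became 4019 with scaling over all probes (16 higher, 4003 lower) and 503 with mean signal as covariate, and scaling to the median of filtered probes gave 2469 higher and 722 lower beside 1273 and 1016. For SPI vs SPE, 1917 calls became 0 with scaling over all probes, 1065 with no replicate block, 1260 with only the groups compared, 781 with the covariate and 1175 without the 3 dimmest arrays. Here the pairing by mouse raised the count of calls; the block moved SPI vs WT from 2301 to 2289.

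Of the pathway genes, 4 called higher in SPI vs WT became 18 with median scaling, 0 with scaling over all probes and 0 with the covariate. The 5 called lower became 14 with scaling over all probes, 3 with detection on all arrays, 3 with only the groups compared, 1 with the covariate and 1 without the 3 dimmest arrays. In SPI vs SPE, 5 called higher became 10 with median scaling, 0 over all probes, 3 with probes averaged by gene, 1 with the covariate and 2 without the 3 dimmest arrays, and 6 called lower became 3, 0, 6, 0 and 2, with 2 when detection was required on all arrays.

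Scaling over all probes turned Irf3 to -0.37, Stat3 to -0.89, Ifngr2 to -0.85, Irf1 to -0.94, Lgals3bp to -0.12, Cmpk2 to -0.95, Ifi27 to -0.84 and Fcgrt to -0.36 in SPI vs WT, as the median of all features moved to -0.85. Median scaling turned Stat2 to 0.12. Ifngr2 turned to -0.23 with its probes averaged, which stood at 0.39, -0.81 and -0.26, and to -0.15 with the covariate. With array weights B2m in SPE vs WT was 0.0024. Apart from the scalings and the averaging of probes, which set these shifts by construction, the cause was not tested.

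Leaving out 1 array gave 1613 to 2615 calls in SPI vs WT and 946 (without SPI 148) to 2217 (without SPI 166) in SPI vs SPE. Pathway genes called higher in SPI vs WT ran from 2 (without SPI 147) to 5 and those called lower from 3 to 6, and those lower in SPI vs SPE from 1 (without SPI 148) to 6. Mr1 in SPI vs WT ran from -0.075 to 0.12 and Bst2 in SPE vs WT from -0.094 to 0.15. All measured members but B2m lay within 45.9 units of their array's median probe, and a probe that was not detected gives only a bound.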
